A study of Mus musculus with 10 samples.

Results

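The p53 target and DNA damage genes are 31 mouse genes. They are Trp53, which encodes the p53 protein, its regulators, and genes listed as p53 targets or DNA damage genes. Whether p53 raises each of them in these mouse cells was not tested. They were picked by symbol, as the rows of the 3 all-gene tables whose gene column equals a listed symbol, out of 46509 rows, of which 12346 reached 1 FPKM in at least 1 of 4 libraries. All 31 were found once each and all 31 reached 1 FPKM, the lowest being Plk3 at 3.69 to 5.00 FPKM. FPKM is the number of sequenced fragments scaled by transcript length and library size, so levels can be set side by side between genes.

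RNA sequencing was done on conditionally immortalized mouse renal proximal tubule cells, with 1 library for each group and 10 libraries in the series. The all-gene tables cover 4 libraries, all from cells given 100 uM H2O2 as oxidative stress and the Wnt ligand Wnt3a at 20 ng/mL. Library 8 received siRNA to FoxO1, library 9 is labelled FoxO3 siRNA, library 10 received siRNA to FoxO1 and FoxO3, and library 7 received scramble siRNA. The remaining libraries are named by number where they are used. The cells carry a mixed background labelled N2 FVB, a TbRII floxed allele and the conditional immortalizing gene of the Immorto-mouse, and the labels do not say whether the floxed allele had been deleted. Cells were transfected at 33 °C and then kept at 37 °C with interferon gamma withdrawn. Sources used here give neither the age of the mice, nor the number of cultures per library, nor the hours of treatment.

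p53 is a transcription factor that is held low by the ubiquitin ligase Mdm2 and is stabilised when DNA is damaged. It then raises genes for growth arrest, cell death and DNA repair, and also Mdm2 itself, which closes a negative feedback loop. In the kidney, p53 is known for its activation in proximal tubule cells during acute injury. The Immorto-mouse gene is a temperature-sensitive viral large T antigen under an interferon-responsive promoter, and large T antigen binds p53. None of the files used here gives a level of that transgene.

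Promoter sequences are shown for 4 members, for Btg2 and Mdm2 because their levels differed most between the libraries, and for Cdkn1a and Ccng1 because they were the most abundant and differed little. The windows are RefSeq sequences on GRCm38.p6, 250 bases before to 50 bases after a gene start, read on the gene's strand. Capitals mark matches on either strand to the 10-base p53 half-site, to GTAAACA, a FoxO-type motif, to TGACTCA, an AP-1 motif, or to TGACGTCA, a cAMP response element. The windows lie at chr1:134079106-134079405 (minus strand) for Btg2, chr10:117710709-117711008 (minus) for Mdm2, chr17:29090729-29091028 (plus) for Cdkn1a and chr11:40755237-40755536 (minus) for Ccng1.
Btg2: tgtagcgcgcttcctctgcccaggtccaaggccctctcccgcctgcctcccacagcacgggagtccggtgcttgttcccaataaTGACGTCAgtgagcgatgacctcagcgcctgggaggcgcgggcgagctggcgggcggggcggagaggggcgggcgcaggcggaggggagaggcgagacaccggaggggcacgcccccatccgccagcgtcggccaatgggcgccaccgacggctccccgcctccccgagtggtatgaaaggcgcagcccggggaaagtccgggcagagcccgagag
Mdm2: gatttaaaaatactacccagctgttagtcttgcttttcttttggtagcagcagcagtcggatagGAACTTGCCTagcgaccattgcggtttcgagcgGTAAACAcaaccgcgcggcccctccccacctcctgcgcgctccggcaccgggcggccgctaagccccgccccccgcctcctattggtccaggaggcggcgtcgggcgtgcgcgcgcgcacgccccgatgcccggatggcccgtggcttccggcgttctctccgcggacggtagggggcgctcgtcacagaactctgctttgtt
Cdkn1a: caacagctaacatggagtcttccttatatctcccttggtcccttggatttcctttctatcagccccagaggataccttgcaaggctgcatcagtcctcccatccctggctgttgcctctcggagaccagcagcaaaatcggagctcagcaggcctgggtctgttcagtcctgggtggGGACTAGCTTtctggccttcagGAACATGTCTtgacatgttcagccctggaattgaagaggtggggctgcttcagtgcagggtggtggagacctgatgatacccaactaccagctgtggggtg
Ccng1: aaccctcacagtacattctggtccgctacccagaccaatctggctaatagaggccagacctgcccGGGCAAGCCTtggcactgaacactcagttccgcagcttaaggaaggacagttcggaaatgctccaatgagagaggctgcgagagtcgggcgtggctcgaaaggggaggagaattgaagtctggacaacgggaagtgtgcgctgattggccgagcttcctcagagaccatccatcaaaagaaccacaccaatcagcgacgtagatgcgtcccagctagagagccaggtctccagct

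The Btg2 window held 1 TGACGTCA, starting 166 bases before the gene start, and none of the other motifs. In the Mdm2 window, a p53 half-site began 186 bases and a GTAAACA 153 bases before the start. Cdkn1a showed 2 half-sites, 73 and 51 bases before its upstream start, and the window of its downstream start held no match. Ccng1 had 1 half-site, 185 bases before the start. Matches to different motifs did not overlap in any of these windows. RefSeq windows were at hand for 23 of the 31 members (31 windows), and 11 of these windows, of 10 members, held a half-site, against 8.36% of all 32851 windows. A pair of half-sites with a spacer of at most 13 bases was found in the Cdkn1a window alone among the members, and in 0.0731% of all windows. GTAAACA was found for Bbc3, Eda2r and Mdm2 (3.65% of all windows), TGACTCA for Fas and Mdm4 (5.2%) and TGACGTCA for Btg2, Plk2 and Ppm1d (1.79%). A match describes letters in these windows and no binding was measured. Sequence outside the windows was not searched, so the lack of a match or pair holds for the windows alone.

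The 3 siRNA libraries share the scramble library 7, and no group has a second library. No test between conditions was therefore made, and differences below have no replicate check. Ratios are log2((a + 1)/(b + 1)) of FPKM, written 8/7 for library 8 over library 7, and 0.58 (1.5-fold) either way is the size used for a count. Total fragments are not known. Read from weakly expressed genes, relative depth was 0.883 in library 8, 0.919 in library 9 and 0.911 in library 10, with library 7 as the base. As a yardstick for a single gene, the robust spread of the ratios of genes at 5 FPKM or more was 0.118 for 8/7, 0.163 for 9/7, 0.126 for 10/7 and 0.177 for 9/8. Foxo1 stood at 3.66 FPKM in library 8, 8.52 in library 9, 4.66 in library 10 and 7.92 in library 7. Foxo3 stood at 17.7, 19.9, 17.3 and 19.7 FPKM in the same order, so it was not lower in the library labelled FoxO3 siRNA. Directions for library 9 are those of the library labelled FoxO3 siRNA. Of 15 proximal tubule markers 7 reached 1 FPKM, among them Lrp2 at 12.1 to 15.4 FPKM. Slc34a1, Slc5a2, Hnf4a and Cubn were among the 8 that did not, and Slc22a6 was listed at 0 in all 4 libraries. Of 5 markers each for fibroblasts, leukocytes, endothelium and distal nephron, 0 reached 1 FPKM, and of 5 podocyte markers Synpo and Wt1 did.

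Many of the 31 genes stood at high levels, and their differences between libraries were of about the size seen over other genes. The average over the 4 libraries was 100 FPKM or more for 13 genes, between 10 and 100 for 16 and under 10 for 2, Ddb2 and Plk3. A mean of 100 FPKM or more was thus reached by 41.9% of the members and by 7.42% of all 12346 measured genes. The order of the levels was nearly the same in each pair of libraries, with a Spearman rho across the 31 genes between 0.988 and 0.996, as a description. For 24 of the 31, the highest level was at most 1.25 times the lowest, a share of 77.4%, near the 73.7% of 9480 genes at 5 FPKM or more. The spread of the members' ratios, computed as for single genes above, was 0.0733 for 8/7, 0.146 for 9/7, 0.144 for 10/7 and 0.162 for 9/8, below that of all such genes except in 10/7. Btg2 at 1.87 times and Mdm2 at 1.55 times differed most, followed by Plk3 at 1.36, Rrm2b at 1.35, Fas at 1.29, and Apaf1 and Polk at 1.26. In bulk RNA, fewer cells in a given state and less RNA per cell cannot be told apart.

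**Figure D1:**
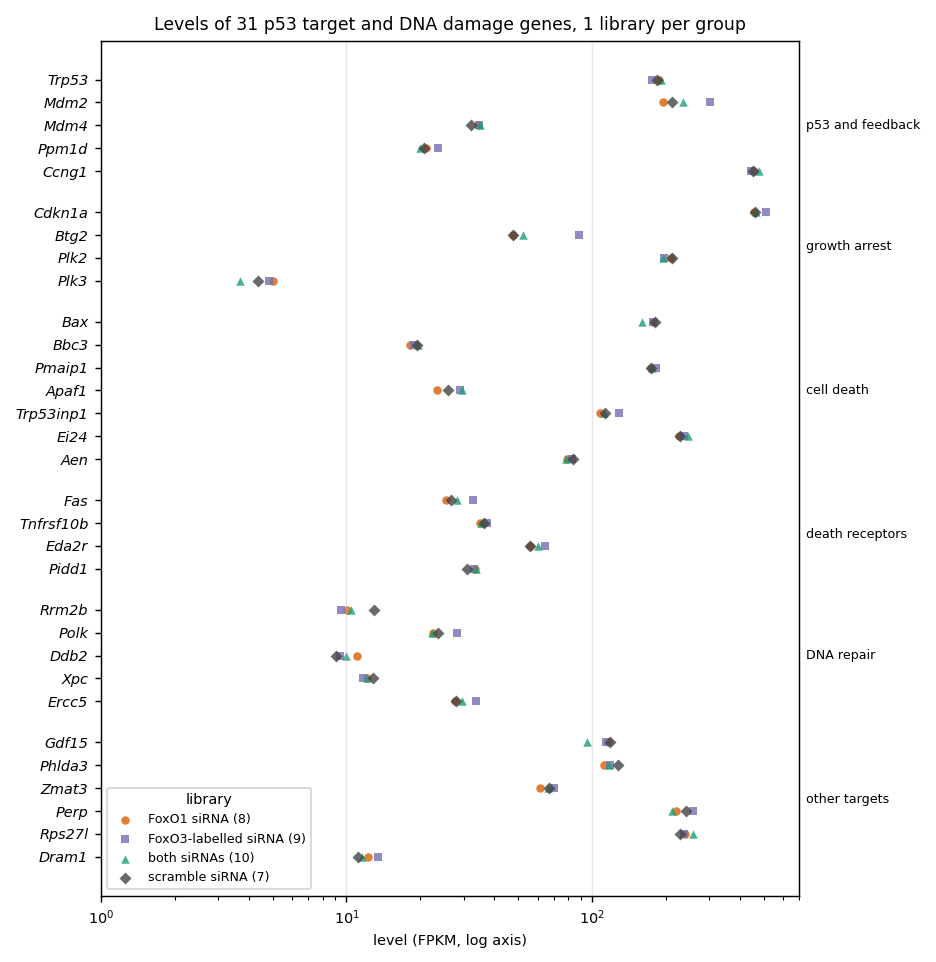
Levels of the 31 genes (rows, grouped by role) in FPKM on a log axis, 1 symbol for each of the 4 libraries and no error estimate. The 4 symbols of most genes lie on top of each other, while the library 9 square stands apart for Btg2 and Mdm2.

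Trp53 itself and the genes that restrain it come first. Trp53 (mm10 chromosome 11, 69580359 to 69591873, plus strand) stood at 186.9 FPKM in library 8, 175.5 in library 9, 190.7 in library 10 and 183.3 in library 7. Its ratios of 0.03, -0.06 and 0.06 in 8/7, 9/7 and 10/7 lay within the single-gene spread, so the p53 transcript differed little between these 4 libraries. Mdm2 (chromosome 10, 117688888 to 117710758, minus strand), the ligase that degrades p53, had 194.9, 302.8 and 235.6 FPKM in libraries 8, 9 and 10 and 211.9 FPKM in library 7. Library 9 was thus the highest, at 142.9% of library 7 and 155.4% of library 8. The Mdm2 ratio was 0.51 in 9/7, short of 0.58, and 0.63 in 9/8, past it. It ranked 130 of 9378 genes at 5 FPKM or more from the highest in 9/7, and 89 of 9379 in 9/8. In 8/7 and 10/7 Mdm2 stood at -0.12 and 0.15.

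Mdm4, the Mdm2 relative that binds p53 and blocks its activation of genes, stood at 34.2, 34.6 and 35.1 FPKM in libraries 8, 9 and 10 and 32.2 in library 7. Ppm1d, a phosphatase that reverses damage signalling to p53, had 21.1, 23.5 and 20.0 FPKM in libraries 8, 9 and 10, against 20.6 in library 7. Both therefore stayed within a log2 ratio of 0.19 of library 7 in every siRNA library. Ccng1, cyclin G1, a p53 target that takes part in the feedback on Mdm2, was among the most abundant of the 31. It stood at 456.9, 444.3 and 478.7 FPKM in libraries 8, 9 and 10 and 454.3 in library 7, with ratios of 0.01, -0.03 and 0.08. The higher Mdm2 level of library 9 was thus not accompanied by a higher Ccng1 level.

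Growth arrest genes held the largest single difference, that of Btg2. Cdkn1a (chromosome 17, 29090979 to 29100722, plus strand) encodes p21, the cyclin-dependent kinase inhibitor through which p53 halts the cell cycle, and had the highest mean level of the 31, 474.5 FPKM. It stood at 455.3 FPKM in library 8, 514.0 in library 9 and 465.1 in library 10, against 463.5 in library 7. Its highest value, in library 9, gave a 9/7 ratio of 0.15 and a 9/8 ratio of 0.17, close to the single-gene spread in those comparisons. Btg2 (chromosome 1, 134075170 to 134079120, minus strand), an antiproliferative gene known both as a p53 target and as an immediate early gene, had 47.6 FPKM in library 8, 88.8 in library 9, 52.6 in library 10 and 47.6 in library 7. Libraries 8 and 7 were the same to 3 digits, library 10 was slightly higher and library 9 was at 186.5% of library 7. The ratio was 0.89 in both 9/7 and 9/8, rank 25 of 9378 genes and rank 38 of 9379 genes from the highest, and 0.00 and 0.14 in 8/7 and 10/7. In the authors' deposited table for 9/7, Btg2 had p = 0.00025 and q = 0.124, from a Cuffdiff test of 2 single libraries, which compares those libraries and not the conditions. No other member had p under 0.05 there, and 2.4% of 13389 tested genes did. Mdm2 had p = 0.0766 in the authors' deposited table. In the authors' deposited tables for 8/7 and 10/7, 0 of 31 members had p under 0.05, against 1.23% of 13302 and 1.5% of 13356 genes. A q of 0.05 or less was given to 19 genes in 9/7 and to 0 in 8/7 and 10/7, in the authors' deposited tables, with 0 members among them.

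Plk2 and Plk3, polo-like kinases that respond to stress and to serum, did not follow Btg2. Plk2 had 210.1, 196.1 and 194.2 FPKM in libraries 8, 9 and 10, against 211.1 in library 7. Plk3, the least abundant member, stood at 5.00, 4.82 and 3.69 FPKM in libraries 8, 9 and 10 and at 4.37 in library 7. The Plk2 ratios in 9/7 and 9/8 were -0.11 and -0.10, and those of Plk3 were 0.12 and -0.04.

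**Figure D2:**
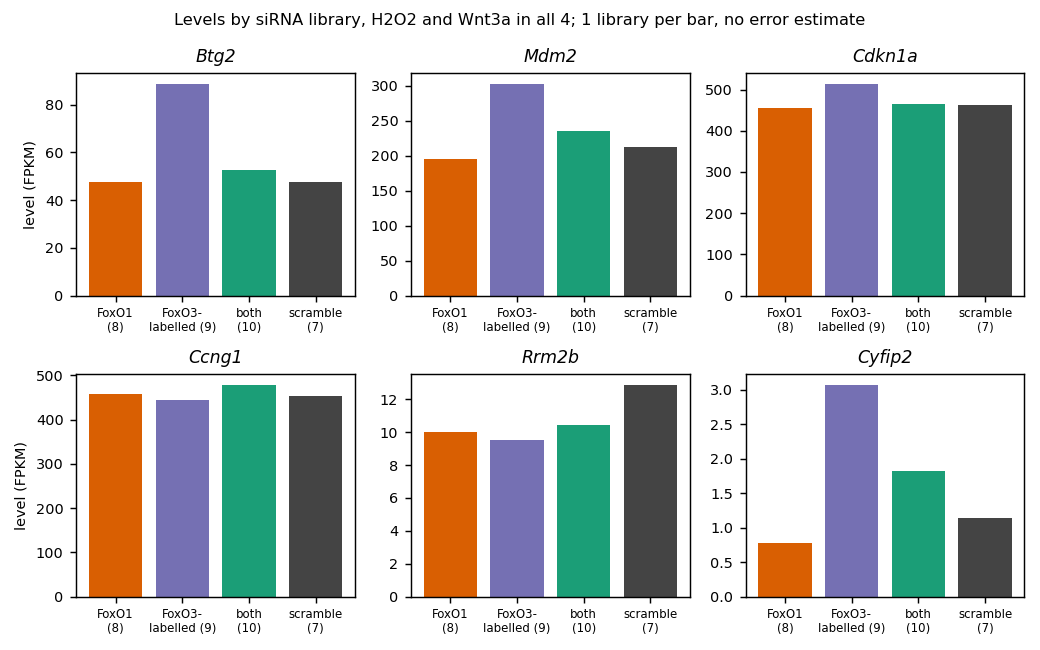
Levels in FPKM (bars from 0, 1 library per bar, no error estimate) of 6 genes in libraries 8, 9, 10 and 7. Btg2, Mdm2 and Cyfip2 are highest in library 9, Cdkn1a and Ccng1 are nearly level, and Rrm2b is highest in library 7.

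The 7 death genes that act inside the cell were close to level. Bax, the pore-forming BCL2 family protein, had 177.5, 177.5 and 160.1 FPKM in libraries 8, 9 and 10 and 180.8 in library 7. The BH3-only genes Bbc3 (Puma) and Pmaip1 (Noxa), which release Bax from its inhibitors, differed widely in level. Bbc3 stood at 18.2, 18.8 and 19.6 FPKM in libraries 8, 9 and 10, against 19.4 in library 7. Pmaip1 stood at 174.5, 181.9 and 176.2 FPKM, against 174.6 in library 7. Neither showed a ratio beyond 0.09 either way in 8/7, 9/7 or 10/7. Apaf1, the scaffold of the apoptosome, had 23.3, 28.9 and 29.5 FPKM in libraries 8, 9 and 10 and 25.9 in library 7, so library 8 was the lowest and library 10 the highest. Trp53inp1, a p53-induced nuclear protein, was highest in library 9 at 128.7 FPKM, with 108.2 in library 8, 112.5 in library 10 and 112.6 in library 7. Ei24, an endoplasmic reticulum protein induced by p53, had 225.6, 236.8 and 245.2 FPKM, against 228.9 in library 7. Aen, an apoptosis-enhancing nuclease, had 78.8, 82.6 and 78.6 FPKM, against 83.4 in library 7. In 8/7 the 7 ratios of this group ran from -0.15, that of Apaf1, to -0.001, that of Pmaip1, with 0 of 7 above 0, against 48.1% of all measured genes, and none reached 0.32. In 9/7 the 7 ran from -0.04 to 0.19.

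The genes for death receptors and their partners number 4, and none reached 0.58 in any of the 4 comparisons. Fas, the receptor for Fas ligand, stood at 25.4, 32.7 and 28.2 FPKM in libraries 8, 9 and 10 and at 26.7 in library 7, with ratios of 0.28 in 9/7 and 0.35 in 9/8. Eda2r, the ectodysplasin A2 receptor, had 55.9, 64.7 and 60.4 FPKM, against 56.0 in library 7. Both were highest in library 9, yet under the 0.58 size. Tnfrsf10b, the mouse TRAIL receptor, had 34.9, 37.2 and 35.2 FPKM in libraries 8, 9 and 10, against 36.4 in library 7. Pidd1, a death domain protein that activates caspase-2, had 33.4, 33.0 and 33.6 FPKM, against 30.98 in library 7. The 9/7 ratios of the group ran from 0.03 to 0.28, all 4 above 0, against 45.9% of all measured genes, and those of Tnfrsf10b and Pidd1, 0.03 and 0.09, lay within the single-gene spread.

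Among the DNA repair genes, Rrm2b was higher in the scramble library than in each siRNA library, as Xpc was by less. Of the ratios of all 31 members, that of Rrm2b was the lowest in 8/7 and in 9/7. Rrm2b, the p53-inducible ribonucleotide reductase subunit that supplies nucleotides for repair, had 10.0, 9.52 and 10.4 FPKM in libraries 8, 9 and 10, against 12.9 in library 7. Its ratios were -0.34, -0.40 and -0.28 in 8/7, 9/7 and 10/7, all of which share library 7, and -0.06 in 9/8. Rrm2b ranked 9160 of 9327, 9065 of 9378 and 8908 of 9319 genes from the highest in these comparisons with library 7. Gm49085, a gene on the other strand, covers 8.0% of its exonic bases, and the sources used here do not say if counting used strand.

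Ddb2 and Xpc, which recognise damaged bases for nucleotide excision repair, had low levels. Ddb2 stood at 11.1, 9.45 and 9.99 FPKM in libraries 8, 9 and 10, against 9.05 in library 7, with a ratio of 0.26 in 8/7. It is uncertain because 23.8% of its exonic bases are shared with Acp2 on the opposite strand. Xpc had 12.1, 11.7 and 12.1 FPKM, against 12.9 in library 7. Ercc5, the nuclease that cuts on the 3′ side of a lesion, was highest in library 9 at 33.6 FPKM, with 27.7 in library 8, 29.5 in library 10 and 27.9 in library 7. Polk, a polymerase that copies past damaged bases, was likewise highest in library 9 at 28.2 FPKM, with 22.5, 22.4 and 23.6 in libraries 8, 10 and 7. The 9/7 ratios of Ercc5 and Polk were 0.26 and 0.25, and those of Ddb2 and Xpc were 0.06 and -0.13.

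The remaining 6 members act in several ways. Gdf15, a secreted stress cytokine, had 116.5 and 114.2 FPKM in libraries 8 and 9 but 95.4 in library 10, against 118.0 in library 7. Its 10/7 ratio of -0.30 was the largest of the 31 in that comparison. Perp, a membrane protein of desmosomes that also takes part in p53-dependent death, had 220.7, 257.4 and 211.6 FPKM in libraries 8, 9 and 10, against 242.7 in library 7. Phlda3, which restrains AKT by competing for membrane lipids, had 111.8, 118.5 and 117.5 FPKM, against 127.1 in library 7, and so was lower than library 7 in all 3, by at most 0.18. Zmat3, an RNA-binding zinc finger protein, had 61.7, 69.8 and 66.0 FPKM, against 66.9 in library 7. Rps27l, a ribosomal protein paralog induced by p53, had 240.0, 236.2 and 257.5 FPKM, against 229.4 in library 7. Dram1, a lysosomal regulator of autophagy, had 12.3, 13.4 and 11.6 FPKM, against 11.1 in library 7. None of these 6 reached 0.58 in any of the 4 comparisons. Rps27l shares 11.2% of its 50-base stretches with other annotated transcripts, and Bax 12.2% of its exonic bases with Gm45808 on the same strand. Reads could have been split there. Smaller shares of 50-base stretches were found for Mdm4 (7.3%) and Tnfrsf10b (5.8%). Genes on the opposite strand cover 7.7% of the exonic bases of Cdkn1a and 6.7% of those of Ei24.

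**Figure D3:**
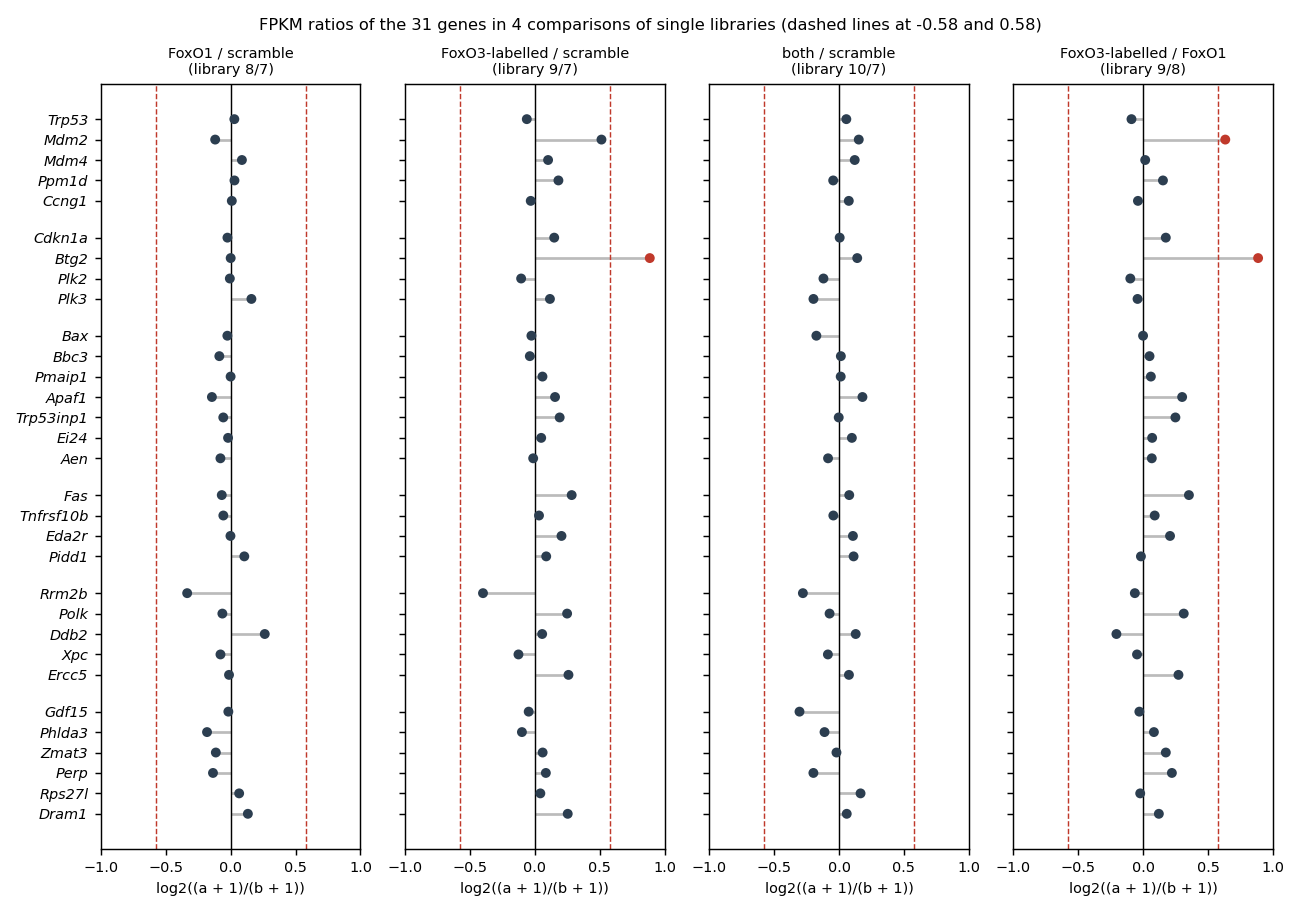
Ratios log2((a + 1)/(b + 1)) of FPKM for the 31 genes (rows) in 8/7, 9/7, 10/7 and 9/8, 1 point per gene, with dashed lines at -0.58 and 0.58. Past the lines are Btg2 in 9/7 and 9/8 and Mdm2 in 9/8.

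The comparison of library 8 with library 7 asked what FoxO1 siRNA changes under H2O2 and Wnt3a. Of the 31 members 0 passed 0.58, where 2.68% of 12006 measured genes did (1.44% by being higher). At the smaller size of 0.32, 1 member passed, Rrm2b, against 9.2% of all measured genes. Among 9327 genes at 5 FPKM or more, 35 were higher and 30 lower by 0.58, and 416 passed 0.32. The members' ratios ran from -0.34 to 0.26 with a median of -0.02, beside a median of -0.01 over all measured genes. Of the 31, 9 lay above 0, against 48.1% of all measured genes.

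The comparison of library 9 with library 7 was meant to ask the same of FoxO3 siRNA. Here 1 of 31 members, Btg2, was higher by 0.58 and 0 were lower, where 4.53% of 12045 measured genes passed either way and 2.23% were higher. All measured genes include weak ones, while 30 of the 31 members stood at 5 FPKM or more in this pair. Among 9378 genes at that level, 87 were higher and 112 lower by 0.58, and 934 passed 0.32. A count of 1 member is too small to set its share apart from either background. Past 0.32 lay 3 members, Btg2, Mdm2 and Rrm2b, against 14.7% of all genes. The members' median was 0.06 and the median of all measured genes -0.02, and 21 of 31 members lay above 0, against 45.9% of all measured genes.

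For library 10 against library 7, 0 of 31 passed 0.58, where 2.96% of 12062 genes did (1.6% by being higher), and 0 passed 0.32, where 10.2% did. Among 9319 genes at 5 FPKM or more, 37 were higher and 34 lower by 0.58, and 487 passed 0.32. The members' ratios ran from -0.30 to 0.18, with a median of 0.01 beside -0.02 over all measured genes, and 17 of 31 lay above 0, against 45.7%. In library 10, where siRNA to FoxO1 and FoxO3 were joined, Btg2 and Mdm2 stood at 0.14 and 0.15. Foxo3 itself stood at 88.1% of library 7 there, beside 90.2% in library 8, which had siRNA to FoxO1 alone. Library 10 therefore does not show a clear loss of the Foxo3 transcript.

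In 9/8, which leaves the scramble library out, 2 of 31 members, Btg2 and Mdm2, were higher and 0 lower. Of 12042 measured genes, weak ones included, 5.13% passed either way and 2.42% were higher. All 31 members stood at 5 FPKM or more in this pair. Among 9379 genes at that level, 110 were higher and 137 lower by 0.58, and 1172 passed 0.32. Past 0.32 lay 3 members, against 17.4% of all measured genes. The third was Fas at 0.35, followed by Polk at 0.31 and Apaf1 at 0.30. The median was 0.07 over the members and -0.01 over all measured genes, and 20 of 31 lay above 0, against 47.6%. Both 9/7 and 9/8 use library 9, so the Btg2 and Mdm2 values there are not independent of each other.

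**Figure D4:**
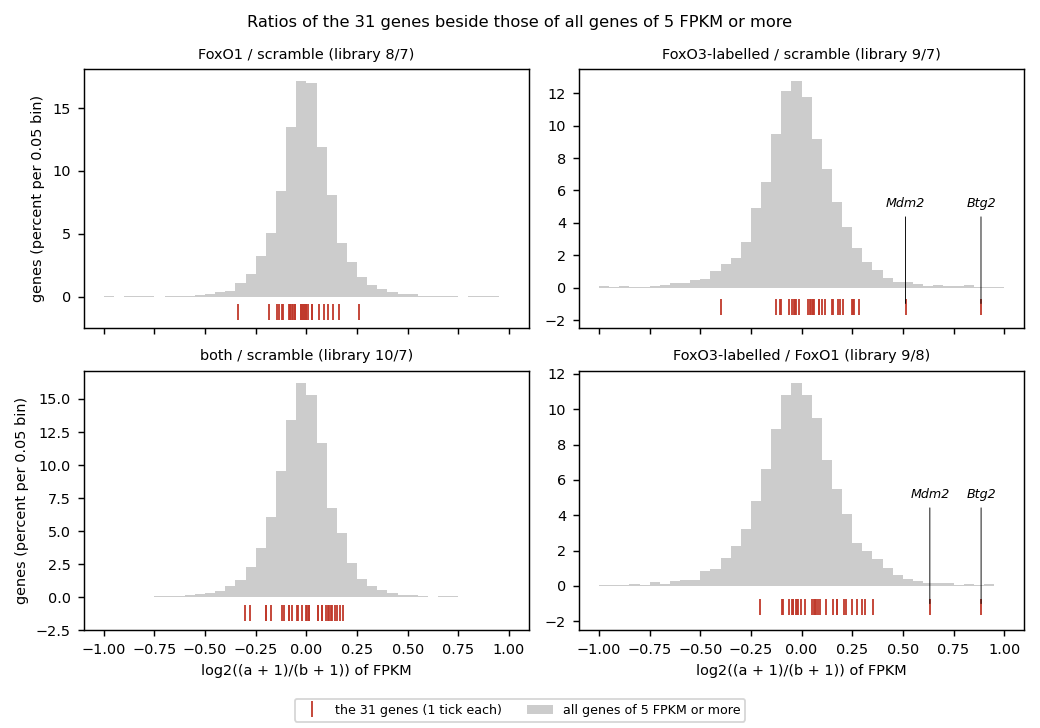
Each panel shows 1 comparison. Grey bars give the percent of genes at 5 FPKM or more per 0.05 of log2((a + 1)/(b + 1)), and each red tick is 1 of the 31 genes. Btg2 and Mdm2 lie in the upper tail in 9/7 and 9/8, Rrm2b in the lower tail in 8/7, 9/7 and 10/7, and Gdf15 in that of 10/7.

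Other genes around p53 were read from lists. Of 31 further p53 targets 27 were measured, and Cyfip2, an actin regulator known as a p53 target in human cells, alone passed 0.58. It had 0.770, 3.07 and 1.82 FPKM in libraries 8, 9 and 10, against 1.14 in library 7, and was thus highest in library 9, as Btg2 was. Its ratio was 0.93 in 9/7 and 1.20 in 9/8, and in the authors' deposited table for 9/7 it had p = 0.00025 and q = 0.124. The list's medians were -0.01, 0.07, 0.02 and 0.11 in 8/7, 9/7, 10/7 and 9/8. Lif, a cytokine, and Gadd45a, a damage-induced stress gene, were measured and did not reach 0.58, with 9/7 ratios of 0.32 and -0.31.

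Of 14 genes that modify or bind p53, all were measured and 0 passed 0.58 in the 4 comparisons. Cdkn2a, whose locus encodes the Mdm2 inhibitor p19Arf as well as p16, was high at 375.2, 426.4 and 361.7 FPKM in libraries 8, 9 and 10, against 400.7 in library 7. The 27 damage sensing and break repair genes were all measured, and 0 passed 0.58 in any comparison. Atrip, the partner of the kinase ATR, and Atm, the kinase that phosphorylates p53 after breaks, had 9/7 ratios of 0.42 and 0.35. Of 14 base excision repair genes, which remove oxidised bases, 13 were measured and Mutyh was lower in 9/7. Mutyh, a glycosylase that acts opposite oxidised guanine, had 6.65, 4.73 and 8.37 FPKM in libraries 8, 9 and 10 and 7.75 in library 7, a 9/7 ratio of -0.61.

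Of 11 proliferation genes 0 passed 0.58, with medians of -0.07, -0.12, 0.02 and -0.07 in 8/7, 9/7, 10/7 and 9/8. In 9/7, 2 of the 11 lay above 0 and 9 below, where 45.9% of all measured genes lay above 0, and the lowest was at -0.25. Cdk1, which drives mitosis, stood at 0.01 and Top2a at -0.21. A link of these values to the Btg2 level was not tested. Of 12 immediate early genes, which growth factors and stress raise within minutes, 10 were measured and Egr1 and Fos were higher in 9/7. Egr1 had 26.9, 39.6 and 25.1 FPKM in libraries 8, 9 and 10, against 23.2 in library 7, and Fos 1.46, 2.62 and 1.57, against 1.25. The immediate early list had medians of 0.03, 0.19, -0.06 and 0.20 in the 4 comparisons. In 9/7, 6 of its 10 measured genes lay above 0 and 4 below, namely Myc at -0.38, Ier3 at -0.14, Atf3 at -0.12 and Junb at -0.01. The part of Egr1, Fos and the other immediate early genes in the Btg2 value was not tested. Of the proximal tubule markers, Aqp1 stood at 18.1, 37.2 and 23.4 FPKM in libraries 8, 9 and 10, against 14.3 in library 7, with ratios of 1.32 in 9/7 and 0.68 in 10/7. Krt8, a keratin of the same list, lay the other way at -0.576 in 9/7, just short of the size rule, with 14.6 FPKM in library 9 and 22.3 in library 7, while the summed level of the 15 markers was 308 and 309 FPKM in libraries 9 and 7.

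**Figure D5:**
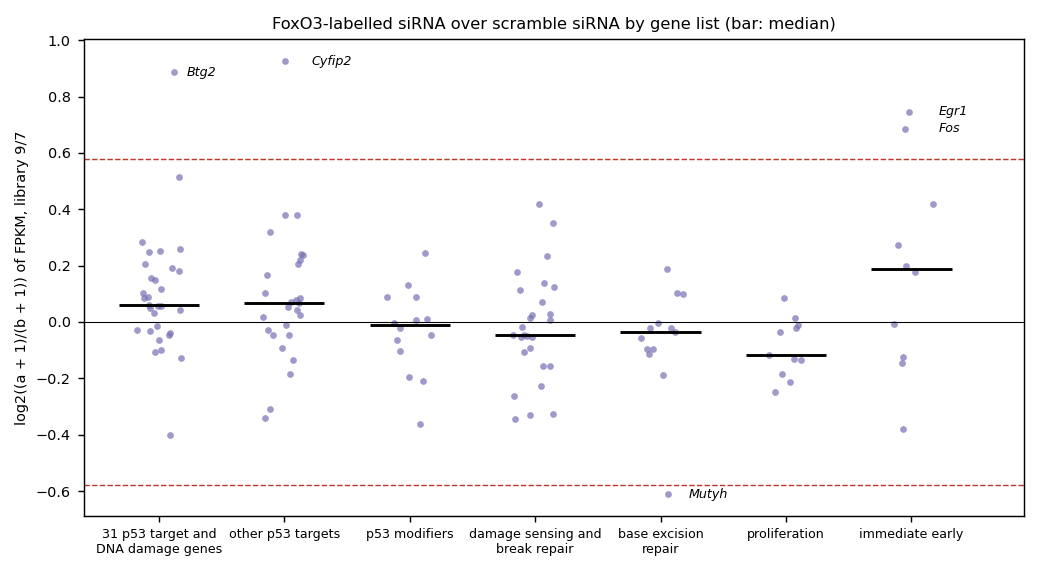
Ratios log2((a + 1)/(b + 1)) of FPKM of library 9 over library 7 for each measured gene of 7 lists, 1 point per gene, with a bar at each list's median and dashed lines at -0.58 and 0.58. Btg2, Cyfip2, Egr1 and Fos lie above the upper line and Mutyh below the lower one.

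The 2 lists of selected genes that the authors deposited for the other libraries held 0 of the 31 members. They hold 1637 and 1852 genes, beside the 46509 genes of an all-gene table, so few members would be met at that share. The list of 1637 genes for siRNA to FoxO1 and FoxO3 with and without H2O2 needs a plain log2 ratio beyond 0.5 in 10/7, and the largest among the members there was 0.31 either way. The list of 1852 genes with a higher level under Wnt3a came from libraries 1, 2, 5 and 6. Values of the 31 genes in libraries 1 to 6 were therefore not analysed here, and the response of these genes to H2O2 itself could not be read.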

How the data were processed

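RNA of 10 libraries was sequenced on an Illumina HiSeq with reads of 100 nt, per the labels. TopHat2, Cufflinks and Cuffdiff were used on mm10, per the submitters' processing notes, with no versions. Settings, annotation and strandedness: not given in the sources used here. For 3 pairs of libraries the authors deposited FPKM with a Cuffdiff p-value and q-value per gene, in 3 all-gene tables of libraries 8, 9 and 10 against library 7. FPKM values of 2 lists of selected genes were also deposited. Library 7 differed between tables by a factor of at most 0.334%, so levels of libraries 9 and 10 were scaled to the 8/7 table, and ratios with library 7 were formed within a table.

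A pseudocount of 1 FPKM was added before log2 ratios were taken, for genes at 1 FPKM or more in 1 of the 2 libraries, and the size rule was 0.58. With 1 library per group no test was made. The unit was the one planned for. Rows listed at exactly 0 may be failed estimates and stayed among all measured genes. Depth relative to library 7 was read from genes under 0.3 FPKM, as the factor that brought most ratios within 0.03 (log2) of a ratio of small whole numbers, which held for 50.1%, 45.8% and 38.0% of them against 15.0% of the axis. No counting interval can be given.

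The members and gene lists were chosen with earlier results of these data known. Values are given for every member; of other lists, genes past 0.58 were named, and Lif, Gadd45a, Cdkn2a, Atrip, Atm, Cdk1, Top2a, Lrp2, Krt8, Myc, Ier3, Atf3, Junb and absent tubule markers were added after their values were seen. Gene loci are as deposited, on mm10 and 1-based. Strands, exon overlap and shared 50-base stretches are from GENCODE M21 on GRCm38. Gene start and end were the same in both for 17 of the 31 members. The ratio and size rule were tested on simulated data with 200 changed genes. The planted changes were far past 0.58 and the noise was below the single-gene spread. That run therefore checks the calculation and says nothing on calls near 0.58. Python 3.11.15, numpy 2.4.6, pandas 2.3.3 and matplotlib 3.10.9 were used.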

Additional observations from a re-analysis of the deposited data

How the results depend on the processing

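No paired analysis was possible because each group has 1 library. Counts of members past 0.58 depended on the size rule. At 0.32 the count was 1 in 8/7, 3 in 9/7, 0 in 10/7 and 3 in 9/8, and at 1 it was 0 in 9/7, 9/8, 8/7 and 10/7. A pseudocount of 0.1, no minimum level, a minimum of 5 FPKM, centring on the median of all genes and leaving out rows without status OK left the counts of the 4 comparisons as they were. So did both other ways of forming 9/8. The members' mean was 0.10 in 9/7, 0.12 in 9/8 and -0.005 in 10/7, where the medians were 0.06, 0.07 and 0.01, so the sign in 10/7 depends on this choice. Centring set the 10/7 median to 0.029. Of 168 values of named genes under another pseudocount or centring, 0 changed sign past 0.58 and 7 moved by more than the single-gene spread, all of Cyfip2, Fos and Foxo1 under the pseudocount of 0.1. Cyfip2 then stood at 1.35 in 9/7, 1.87 in 9/8 and 0.625 in 10/7, past 0.58. Over 3 libraries the number of members within 1.25-fold cannot be lower than over 4, where it was 24. It was 26 without library 8, 28 without library 9, 26 without library 10 and 25 without library 7, settings chosen after seeing the data; of genes at 5 FPKM or more 81.3%, 86.6%, 79.1% and 79.0% then lay within it. With 1 library per group, neither culture-to-culture spread nor the effect of an siRNA can be separated from that of its library, and the total depth is unknown.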

Other observations

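Of the 31 further p53 targets, 5 appeared in the authors' list of genes with a higher level under Wnt3a: Lif, Cyfip2, Igfbp3, Sfn and Trp73. As a background, this list holds 1852 genes, beside the 46509 genes of an all-gene table. The list was chosen by the authors on library 2 over library 1, so that difference is a description. Lif had 28.6 FPKM in library 2 (Wnt3a, no H2O2), against 18.7 FPKM in library 1 (buffer). Under H2O2 it had 28.0 FPKM in library 6 (Wnt3a), against 17.97 FPKM in library 5 (no Wnt entry), a log2 ratio of 0.61 in a pair that the list was not chosen on. Ier3, an immediate early gene, had 90.0 FPKM in library 2 and 34.2 FPKM in library 1, and 98.4 FPKM in library 6 and 29.2 FPKM in library 5. The other 4 of the 5 lay under 0.6 FPKM in these 4 libraries.

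Cyfip2 and Sfn, 2 of these 31 targets, were also in the list for siRNA to FoxO1 and FoxO3. That list holds 1637 genes beside the same 46509. Sfn had 0.085, 0.136, 0.059 and 0.328 FPKM in libraries 3, 4, 7 and 10, all under the minimum of 1 FPKM. Without H2O2, Cyfip2 had 1.76 FPKM in library 4 (both siRNAs) and 1.03 FPKM in library 3 (scramble siRNA). Under H2O2 it had 1.82 FPKM in library 10 and 1.15 FPKM in library 7. Both pairs were used to choose the list.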
